A study of Coprinopsis cinerea with 10 samples.

Results

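Vegetative mycelium of the ink cap mushroom *Coprinopsis cinerea* was set against its fruiting stages to see which genes mark vegetative growth. The comparison took the 2 arrays titled as mycelium against the mean of the 4 other stages, which have 2 arrays each and were weighted equally, so it used all 10 arrays of the study, 2 of mycelium and 8 of fruiting. All stages came from 1 dikaryotic strain, a strain with 2 kinds of nuclei per cell that is able to fruit. It has 50% Okayama-7 origin, was backcrossed to that sequenced monokaryon for 5 generations and is about 98.44% homologous to it. Mycelium was grown at 37 °C for about a week on YMD agar, which holds yeast extract, malt extract and dextrose, until it covered the plate, and 5 plates were pooled per sample. For fruiting, cultures were moved to 25 °C with 12 h of light alternating with 12 h of dark and high humidity. The fruiting samples were initials about 2 mm tall, stage 2 primordia of about 1 cm, young fruiting bodies of about 2 cm, and the fully expanded caps of mature fruiting bodies of about 4 cm, with 4 to 5 structures per sample. Temperature and developmental stage differ between mycelium and fruiting samples, and light hours are recorded for the fruiting samples only. Stage, temperature and any difference in light cannot be told apart here, and the mature sample holds cap tissue only.

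In mushroom-forming fungi the mycelium is the feeding phase. Its hyphae secrete enzymes that break down polymers outside the cell, take up the products through transporters, and coat their aerial surfaces with hydrophobins, small secreted proteins that assemble into a water-repellent layer. When growth conditions change, hyphae of the dikaryon knot together into initials, and the fruiting body then builds stalk and cap tissue, undergoes meiosis in the cells lining the gills and sheds spores. Mating in this fungus is governed by 2 loci: the A locus encodes homeodomain proteins, and the B locus encodes farnesylated peptide pheromones and their G protein-coupled receptors.

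The arrays were single-colour NimbleGen arrays with a value for each of 13320 genes in 2 blocks of probes. Values below are log2 intensities per gene, averaged over both blocks, and differences are mycelium minus the mean of the fruiting stages on that log2 scale. Median intensities were 3268 to 3403 on the linear scale, and the floor below which a level is only a bound, set at 4 times the random-sequence controls of each array, lay between 89.4 and 117. Between 11183 and 11427 genes were above it. Replicate arrays correlated at 0.997 to 0.999 across genes, and the typical gene differed between replicates by 0.0377 in initials to 0.0717 in mature caps. All 10 arrays shared 1 slide and were placed on it by stage, so an array's position and its stage cannot be told apart.

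Most genes differed. Of 13320 genes, 4940 (37.1%) were higher and 5311 (39.9%) lower in mycelium than in the fruiting mean at an adjusted p of at most 0.05 (limma, Benjamini-Hochberg), together 77.0% of the array. Most of these differences were small, with a median size of 0.56 for higher and 0.49 for lower genes. When differences among the 4 fruiting stages were counted as part of the spread, 1444 genes were higher and 1762 lower, and this wider spread is named below where it ended the call of a gene. Every list described below had fewer members past the test with it, except for light sensing. Against a null of a 2-fold difference, 1320 were higher and 1120 lower. In whole tissues, fewer cells of a type and less RNA per cell cannot be told apart.

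Genes are called marked where the test was passed, the difference from the fruiting mean was at least 2-fold, and both mycelium arrays lay beyond all 8 fruiting arrays on the same side. Marked genes numbered 1419 higher (10.7% of all genes) and 1196 lower (8.98%) in mycelium. By the fitted difference, 605 of those higher differed at least 4-fold and 92 at least 16-fold, and of those lower, 451 and 75 did. These counts include genes under the floor on 1 side, for which the fold is only a bound and can be smaller. The metalloprotease CC1G_02236, for example, had a fitted difference of 4.88 but a bound of 11.9-fold. A further 168 genes were at least 2-fold higher and 183 at least 2-fold lower by the test, but their mycelium arrays did not clear the range of the fruiting arrays. A named product was lacking for 1124 (79.2%) of the higher and 900 (75.3%) of the lower marked genes. The groups of genes described below thus cover a small share of what marked mycelium. Lists were made from product names, and among genes with a named product 6.82% were marked higher and 6.84% lower. Counts in every list are to be read beside these shares and those of all genes, also where the shares are not repeated.

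**Figure D1:**
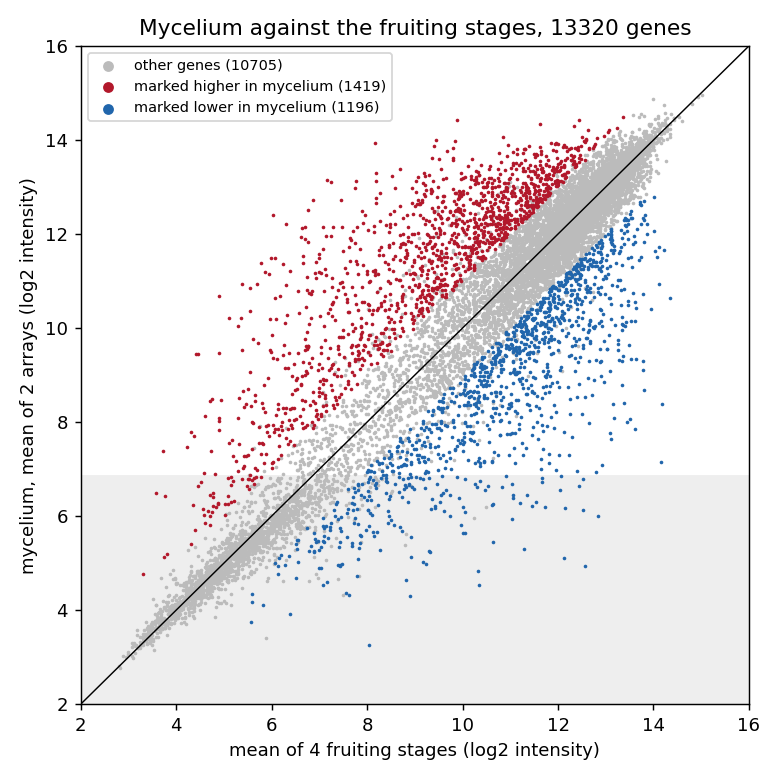
Each point is 1 of 13320 genes, with the mean log2 intensity of the 2 mycelium arrays on the vertical axis and the mean of the 4 fruiting stages on the horizontal axis; the line is equality and the grey band lies under the highest floor. The 1419 genes marked higher in mycelium sit above the line and the 1196 marked lower sit below it, some of them with mycelium levels inside the band.

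The distance from mycelium grew along development. For the genes marked higher, the median difference was 1.53 against initials, 1.74 against primordia, 1.91 against young fruiting bodies and 2.28 against mature caps. For those marked lower, the medians were -1.46, -1.59, -1.71 and -2.08 in the same order. Initials were the nearest fruiting stage for 653 of the 1419 higher genes and 448 of the 1196 lower genes, and mature caps were the nearest for 375 and 366. Across all genes, mycelium correlated at 0.929 with initials, 0.913 with primordia, 0.901 with young fruiting bodies and 0.851 with mature caps. Against initials alone, 1451 genes (10.9%) were at least 2-fold higher in mycelium by the test and 1200 (9.01%) at least 2-fold lower. Against primordia these were 1623 (12.2%) and 1322 (9.92%), against young fruiting bodies 1692 (12.7%) and 1550 (11.6%), and against mature caps 2263 (17.0%) and 1973 (14.8%). The 4 single-stage differences share the same mycelium arrays, so they are given side by side as a description. Marked genes were chosen by the mean of these differences, so their medians cannot show a trend on their own. The last stage holds cap tissue only.

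The named gene with the largest rise in mycelium was an exo-beta-1,3-glucanase, CC1G_08284, an enzyme class that releases glucose from the ends of the beta-1,3-glucan that forms much of the fungal wall. It read 13.12 and 13.11 on the mycelium arrays, against a lowest value of 6.76, a median of 6.96 and a highest of 8.28 on the fruiting arrays, a difference of 5.86 ± 0.119 (SE; limma adjusted p = 2.27e-08). Its highest fruiting values came from initials, and the other 3 stages lay near the floor. A gene with a tyrosinase central domain, CC1G_06016, of the copper enzymes that oxidise phenols on the way to melanin, read 12.18 and 12.11 in mycelium and 5.73 to 7.62 with a median of 6.71 on fruiting arrays. Primordia and young fruiting bodies were under the floor for it, so it was at least 36.2-fold higher in mycelium (adjusted p = 9.94e-08). The groups were far apart for both genes.

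A peroxidase, CC1G_02104, was above the floor in mycelium only, with 11.15 and 11.24 there and 5.30 to 6.68 (median 5.75) on the fruiting arrays, at least 23.2-fold higher (adjusted p = 1.07e-09). A metalloprotease, CC1G_02236, of the proteases that use a metal ion to cut peptide bonds, showed the same contrast at 10.23 and 10.21 in mycelium and 4.86 to 5.65 in fruiting samples, at least 11.9-fold higher. A cutinase, CC1G_09668, an esterase class that opens the polyester of plant cuticles, read 11.06 on both mycelium arrays and 5.60 to 8.12 on fruiting arrays, at least 14.9-fold higher. For each of the 3 genes no fruiting array came within 2 log2 units of mycelium.

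Other large rises were in genes that stayed measurable during fruiting. Cytochrome P450 78A3p, CC1G_09431, of the haem monooxygenases, read 13.36 and 13.39 in mycelium and 6.79 to 11.44 (median 8.34) in fruiting samples, a difference of 4.68 ± 0.0983. Its mature caps, at a mean of 11.23, were the fruiting stage nearest to mycelium, and young fruiting bodies, at 6.85, the farthest. CC1G_05781, annotated as OrdA, the name of a cytochrome P450 of aflatoxin synthesis in Aspergillus, read 14.02 and 13.97 against 8.43 to 10.13, a difference of 4.55 ± 0.0301. LAP1, CC1G_04948, read 13.57 and 13.63 in mycelium, and its fruiting means were lower at each stage up to the young fruiting body, with 11.96 in initials, 10.39 in primordia, 7.77 in young fruiting bodies and 7.91 in mature caps. Of the 5 genes annotated as LAP1, CC1G_05923 was also marked higher (1.38) and CC1G_05883 was marked lower (-2.04). A ThiJ/PfpI gene, CC1G_03578, was steadier among the fruiting stages at 9.07 to 10.10, below 13.71 and 13.81 in mycelium.

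**Figure D2:**
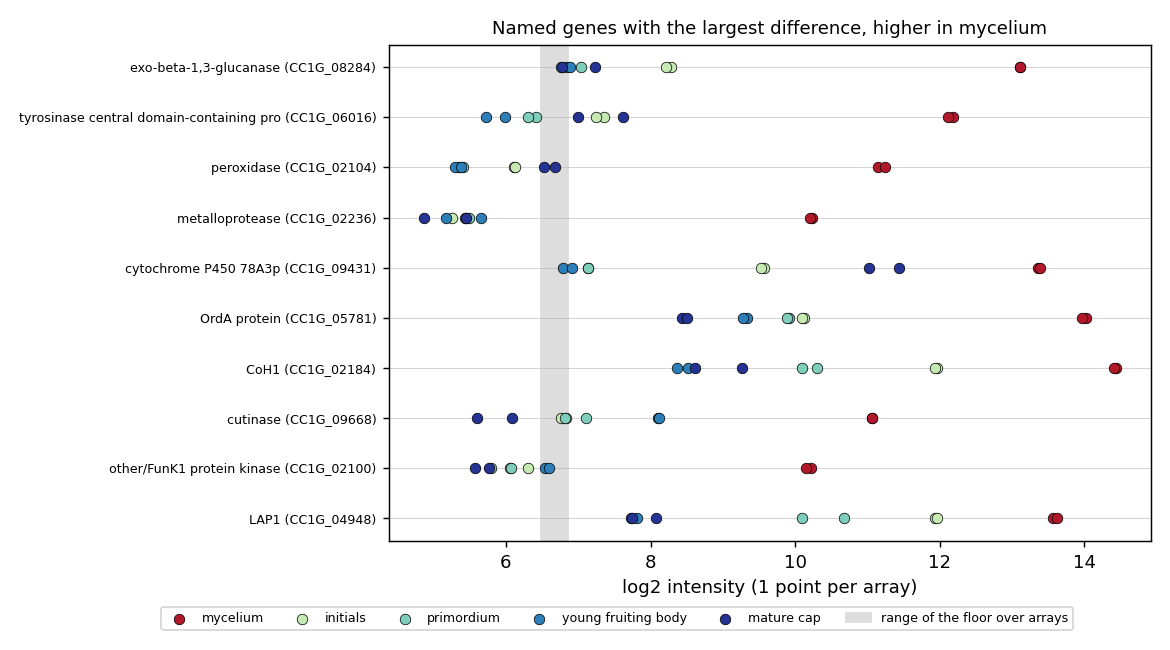
Log2 intensity of the 10 named genes with the largest rise in mycelium, with 1 point for each array, coloured by stage, and a grey band for the floors of the 10 arrays. Both mycelium points lie right of every fruiting point for each gene, and the peroxidase CC1G_02104 and the metalloprotease CC1G_02236 have all fruiting points left of the band or inside it.

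Genes measured in mycelium alone formed a small group. In all, 80 genes were above the floor on both mycelium arrays and on none of the 8 fruiting arrays, and 78 of them were marked higher. Their bounds ran from 26.6-fold for CC1G_05328 down to 1.06-fold for CC1G_07778, and CC1G_10011 had none. Where the bound is under 2-fold, the mark rests on fruiting readings under the floor. The opposite pattern, above the floor on all 8 fruiting arrays and on neither mycelium array, was seen for 85 genes, of which 80 were marked lower. Of the 80 mycelium genes 18 had a named product, and 11 of these were kinases. Kinases made up 378 of the 4328 genes with a named product (8.73%), and the 80 genes were chosen by their values, so these counts are a description. The 11 were 6 FunK1 kinases, 4 kinases of the group annotated as PKL/ccin4 and 1 TKL-ccin kinase. The kinase CC1G_02847 of the TKL-ccin group read 10.29 and 10.27 in mycelium, against 5.98 to 6.56 in fruiting samples (at least 12.3-fold). The PKL/ccin4 genes CC1G_09974, CC1G_09975 and CC1G_09976 have consecutive locus tags and were at least 2.35-fold, 3.47-fold and 2.21-fold higher in mycelium. The group also held xylanase A, CC1G_12867, which cuts the xylan backbone of plant hemicellulose and was at least 3.81-fold higher. It further held a mixed-linked glucanase, CC1G_02605 (at least 3.53-fold), a cytochrome P450, CC1G_10382 (at least 2.26-fold), and a metalloprotease 1, CC1G_15267 (at least 1.77-fold).

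Hydrophobins were the list with the greatest share of marked members. Of 5 annotated hydrophobins, 4 were marked higher in mycelium, beside 10.7% of all genes. None was marked lower, and the median difference was 1.99, against -0.03 over all genes. CC1G_02182 read 12.64 and 12.72 in mycelium and 8.15 to 10.02 (median 9.17) in fruiting samples, a difference of 3.53 ± 0.0641 (adjusted p = 1.42e-08), and its stage means were lower at each later stage, ending at 8.27 in mature caps. The 2 hydrophobin-251 genes CC1G_08314 and CC1G_10176 differed by 2.12 ± 0.0465 and 1.99 ± 0.0353, with nearly level means through initials, primordia and young fruiting bodies. Hydrophobin-315, CC1G_09189, read 14.26 and 14.34 in mycelium and 10.78 to 13.25 in fruiting samples, a difference of 1.96, and it lost its call with the wider spread (adjusted p = 0.0534).

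The fifth hydrophobin, CC1G_13822, did not pass the test, with 12.32 and 12.28 in mycelium and 11.90 to 12.57 in fruiting samples (difference -0.04 ± 0.0246, adjusted p = 0.185). With mature caps left out its difference was -0.18 (adjusted p = 0.000563), since caps were its lowest stage at 11.93. CoH1, CC1G_02184, a hydrophobin of this species that carries its own name and so was not in the list, read 14.44 and 14.41 in mycelium. Its fruiting arrays ran from 8.37 to 11.97 with a median of 9.68, a difference of 4.54 ± 0.156 (adjusted p = 2.48e-07). Initials were its highest fruiting stage at 11.95 and young fruiting bodies its lowest at 8.45.

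Genes of mating communication were higher in mycelium as a group. Of 36 genes annotated as pheromones or pheromone receptors, 27 were higher and 4 lower by the test, beside 37.1% and 39.9% of all genes. In this list 16 were marked higher (44.4%) and 1 lower (2.78%), beside 10.7% and 8.98% of all genes. The median difference of the list was 1.06. With the wider spread 12 were higher and 2 lower, and 12 and 1 were marked. The 30 pheromone genes held 15 of the genes marked higher and the 1 marked lower. A set of 8 pheromone genes, with CC1G_14008 and CC1G_08185 among them, read within 0.5 of CC1G_14008 on every array, with differences of 2.59 to 3.02. Probes of near-identical paralogs can share signal, so these 8 may not be separate measurements; of the other 28 list members 8 were marked higher. CC1G_14008 read 12.85 and 12.90 in mycelium and 9.14 to 11.50 (median 9.42) in fruiting samples. Its mature caps returned towards mycelium at 11.48, above the 9.16 to 9.60 of the 3 earlier fruiting stages.

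Other pheromone genes had a different course, and these were picked after their values were seen. CC1G_01515 read 13.15 and 13.13 in mycelium and was lower at each later stage, with 8.50 as its lowest fruiting value (difference 2.91). CC1G_02133 differed by 1.49 and likewise reached its lowest value, 9.54, in mature caps. Pheromone Phb2.2 B44, CC1G_02132, was the member marked lower, at 8.42 and 8.45 in mycelium and 9.22 to 10.37 in fruiting samples (difference -1.39 ± 0.0463, adjusted p = 2.16e-07).

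All 6 pheromone receptor genes were higher in mycelium by the test, and 1 was marked, the pheromone B beta 1 receptor CC1G_15339. It read 12.35 and 12.37 in mycelium and 8.93 to 11.81 in fruiting samples, with its lowest values in mature caps. The pheromone B alpha 1 receptor CC1G_02151 read 14.02 and 14.05 in mycelium and 11.59 to 13.94 (median 13.82) in fruiting samples, a difference of 0.74. With mature caps left out of the fruiting mean, 5 of the 6 receptors were still higher by the test and none was marked. None of the 6 receptors passed the test with the wider spread, where all 12 genes still called higher were pheromone genes.

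Beside 37.1% higher, 39.9% lower and 10.7% marked higher over all genes, 5 of 8 mating-type proteins were higher, 2 lower and 2 marked higher. The marked ones were CC1G_14510, with 11.43 and 11.48 in mycelium and 8.03 to 9.49 in fruiting samples (difference 2.92 ± 0.0889), and CC1G_14509, with 7.26 to 9.86 in fruiting samples (2.57 ± 0.0820). Both are annotated only as holding a fungal mating-type domain. The homeodomain proteins CC1G_01833 and CC1G_01834 of the A locus type differed little, by -0.33 and 0.28. The beta subunit of farnesyltransferase, CC1G_05578, an enzyme that attaches the farnesyl lipid to proteins and to pheromone precursors, read 12.74 and 12.65 in mycelium and 9.96 to 11.77 in fruiting samples (difference 1.85 ± 0.0521).

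**Figure D3:**
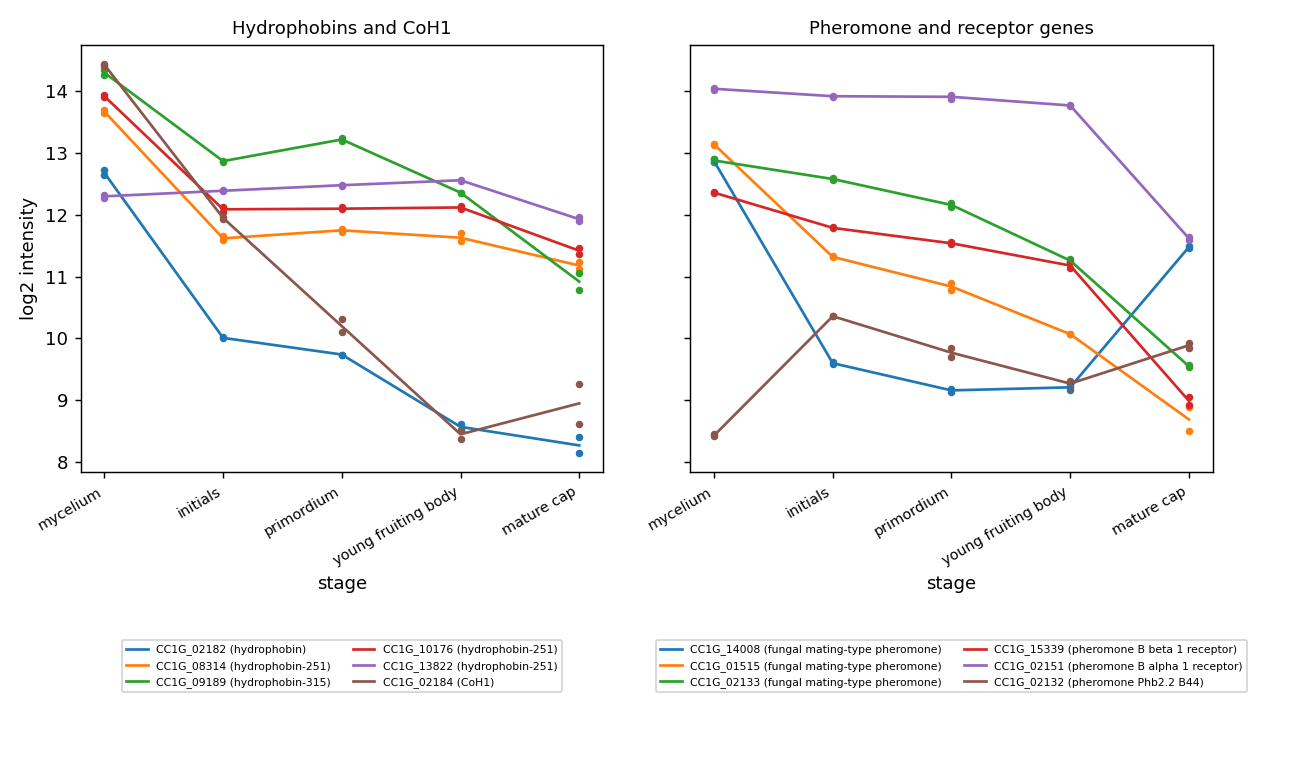
Log2 intensity by stage, mycelium at the left, for the 5 annotated hydrophobins with CoH1 (left) and for 6 pheromone and receptor genes (right); points are arrays and lines join stage means. CC1G_13822 stays near 12 in all stages while the other hydrophobin genes start higher in mycelium, and CC1G_14008 is low from initials to young fruiting bodies and returns to 11.48 in mature caps.

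Of 87 cytochrome P450 genes, 46 were higher and 28 lower, and 29 were marked higher against 9 marked lower, which is 33.3% and 10.3% of the list, beside 10.7% and 8.98% of all genes. The marked counts were 22 and 8 with the wider spread. Beside CC1G_09431, the gene CC1G_10879 had the largest rise and read 12.18 and 12.22 in mycelium and 6.66 to 9.79 in fruiting samples (difference 3.80 ± 0.0956). The list also held some of the sharpest losses in mycelium, CC1G_14898 and CC1G_10321, described below. Alcohol, aldehyde and short-chain dehydrogenases were mixed, with 42 of 78 higher and 26 lower, 10 marked higher and 7 marked lower. Over all genes 37.1% were higher and 39.9% lower by the test. The 12.8% and 8.97% marked in this list were near the shares of all genes. The count of 10 marked higher was 5 with the wider spread and 20 when mature caps were left out of the fruiting mean.

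An oxidoreductase, CC1G_02563, had levels in caps closer to mycelium than the other stages did. It read 12.63 and 12.67 in mycelium, its means were 8.81, 7.52 and 8.27 from initials to young fruiting bodies, and mature caps returned to 11.20 (difference 3.70 ± 0.0785). An NADH:flavin oxidoreductase, CC1G_10861, read 12.99 and 13.02 in mycelium and a median of 10.30 in fruiting samples, with 11.28 as the highest (2.51 ± 0.0731). D-lactaldehyde dehydrogenase CC1G_11975 went the other way, with 7.29 and 7.32 in mycelium and 9.87 to 13.72 in fruiting samples (-3.66 ± 0.0341). Its fruiting median of 10.15 lay well below the caps, which were its highest stage. Among 36 antioxidant enzymes 21 were higher and 11 lower, beside 37.1% and 39.9% of all genes, with 4 marked higher and 3 lower. The marked shares of 11.1% and 8.33% were near the 10.7% and 8.98% of all genes. With the wider spread the marked counts were 2 and 1, and without mature caps 8 were marked higher. A 2-Cys peroxiredoxin, CC1G_04730, which reduces peroxides, differed by 1.89 ± 0.0607 but spanned 9.91 to 13.38 in fruiting samples and lost its call with the wider spread (adjusted p = 0.204). Glutathione S-transferases, which join glutathione to reactive compounds, included the lower genes CC1G_10750 (-1.79 ± 0.0281) and CC1G_15821 (-2.07 ± 0.0602); the second lost its call with the wider spread (adjusted p = 0.145).

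FunK1 kinases are a fungal family that is much expanded in mushrooms, and of 127 on the array 66 were higher and 40 lower. In the family 17 were marked higher (13.4%) and 10 marked lower (7.87%), beside 10.7% and 8.98% of all genes. Among genes with a named product the shares were 6.82% and 6.84%. The count of 17 was 11 with the wider spread. CC1G_02100, the FunK1 gene with the largest rise, read 10.22 and 10.15 in mycelium and 5.57 to 6.60 in fruiting samples, at least 11.4-fold higher (adjusted p = 4.26e-08). CC1G_07452 was above the floor in mycelium only, at least 1.67-fold higher. On the other side, FunK1 gene CC1G_02515 read 5.83 and 6.55 in mycelium and 7.34 to 10.94 (median 10.76) in fruiting samples, at least 10.4-fold lower in mycelium. CC1G_05033 read 8.19 and 8.18 in mycelium, and its fruiting means were higher at each later stage, up to 12.24 in mature caps (difference -2.71 ± 0.0580).

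Of 251 other kinases 102 were higher and 97 lower, with 27 marked higher (10.8%) and 19 lower (7.57%), and the median difference was 0.00. These shares were near those of all genes, and the 10.8% was above the 6.82% of genes with a named product. The 19 marked lower were 11 with the wider spread. The largest loss was AgaK1 kinase CC1G_07751 with 5.40 and 5.51 in mycelium and 8.90 to 12.66 in fruiting samples, at least 16.1-fold lower in mycelium. A CAMK kinase of the class named unique, CC1G_13697, read 7.65 and 7.71 against 11.68 to 12.83 (difference -4.61 ± 0.0397). Among small GTPases and G proteins, which relay signals to the cytoskeleton and to growth, 26 of 72 were higher and 26 lower. Over all genes 37.1% were higher and 39.9% lower. Of this list 2.78% were marked higher and 1.39% lower, beside 10.7% and 8.98% of all genes. A Rho1 GTPase, CC1G_03163, was marked higher with 11.38 and 11.37 in mycelium and 7.56 to 9.65 in fruiting samples (2.93 ± 0.0287). A G protein alpha subunit, CC1G_08586, was the second member marked higher (2.54 ± 0.285). The 1 member marked lower, a RhoA exchange factor gene CC1G_15096, lay under the floor in mycelium and lost its call with the wider spread (adjusted p = 0.188) and against a 2-fold null (adjusted p = 0.0764).

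Enzymes that act on plant polymers did not move together, and more of them were lower in mycelium. Of 67 genes of plant cell wall degradation, 22 were higher and 39 lower, beside 37.1% and 39.9% of all genes, and the median difference was -0.42. In this list 10 were marked higher (14.9%) and 18 marked lower (26.9%), beside 10.7% and 8.98% of all genes. With the wider spread 7 were higher and 16 lower. The 10 marked higher were 5 with it, and the 18 marked lower were 12. A xylanase, CC1G_12457, read 11.70 and 11.67 in mycelium and 6.85 to 8.87 in fruiting samples (3.83 ± 0.107). Among subgroups named after their values were seen, all 4 cutinases were higher, with 3 marked. Endoglucanases, which cut cellulose internally, were lower in 13 of 14 cases with 2 marked, and of 9 beta-glucosidases, which split the short sugars that remain, 6 were lower with 3 marked. Those annotated as glucan 1,3-beta-glucosidases are not counted among the 9. Cellobiohydrolase I-I, CC1G_12980, which releases cellobiose from cellulose chain ends, read 7.06 and 7.21 in mycelium and 9.29 to 10.90 in fruiting samples (-3.13 ± 0.0518). Beta-glucosidase CC1G_09477 read 7.53 and 7.31 against 10.89 to 13.02 (-4.27 ± 0.0643), the largest loss of the list. Per the labels, the same YMD agar served all stages.

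**Figure D4:**
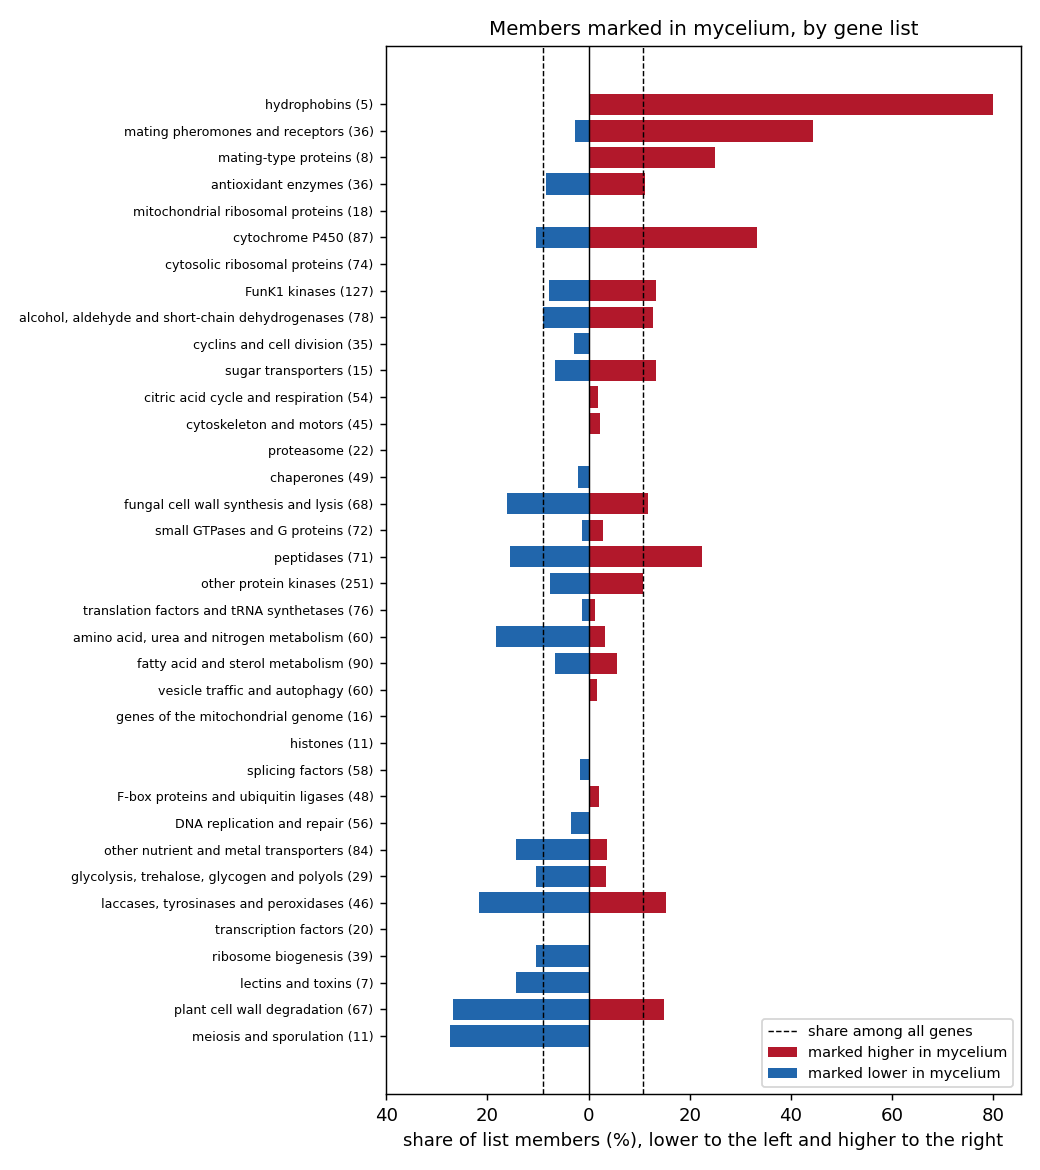
Share of each gene list marked higher in mycelium (red, to the right) and marked lower (blue, to the left), for lists of at least 5 genes with the number of members in brackets, ordered by median difference; dashed lines are the shares among all genes, 10.7% and 8.98%. Hydrophobins and mating pheromones reach farthest to the right, and meiosis and plant cell wall degradation farthest to the left.

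Laccases, tyrosinases and peroxidases, which oxidise phenols and lignin, were also divided, with 17 of 46 higher and 23 lower. Over all genes 37.1% were higher and 39.9% lower. The 7 marked higher (15.2%) and 10 marked lower (21.7%) stand beside 10.7% and 8.98% of all genes. Of 16 laccases, 13 were lower and 6 marked lower, with 1 marked higher. Laccase 2, CC1G_03946, read 6.71 and 6.50 in mycelium and 8.57 to 9.98 in fruiting samples (adjusted p = 3.35e-07), with 1 of the 2 mycelium arrays above the floor. Tyrosinase CC1G_05029 was lower as well, at 8.38 and 8.35 against 9.65 to 11.31 (-1.79), in contrast to the tyrosinase-domain gene CC1G_06016 above. Pyranose dehydrogenase CC1G_03941, a sugar-oxidising flavoenzyme of litter fungi, read 10.10 and 10.04 in mycelium, with mature caps the nearest stage at 10.90 and the other 3 stages at 12.57 to 13.70. Aryl-alcohol oxidases, which supply hydrogen peroxide, had 4 of 11 members marked higher and 1 lower.

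Peptidases, which cut proteins, were marked in both directions. Of 71, 29 were higher and 30 lower by the test, beside 37.1% and 39.9% of all genes, and the median difference was -0.00. The 16 marked higher (22.5%) and 11 marked lower (15.5%) stand beside 10.7% and 8.98% of all genes. The 30 metalloproteases held 12 of the 16 marked higher and 5 of the 11 marked lower. CC1G_15350 read 10.33 on both mycelium arrays and 5.79 to 7.69 in fruiting samples, at least 10.5-fold higher. CC1G_08950 read 9.47 and 9.59 in mycelium and 12.49 to 13.87 in fruiting samples (-3.72 ± 0.0490), and CC1G_14256 read 10.07 on both mycelium arrays against 12.17 to 13.78 (-3.30 ± 0.0521).

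Genes that build or remodel the fungal wall were divided, with 32 of 68 higher and 27 lower, beside 37.1% and 39.9% of all genes. The 8 marked higher (11.8%) and 11 marked lower (16.2%) stand beside 10.7% and 8.98% of all genes, and the median was 0.03. Of 12 exo-beta-1,3-glucanases only CC1G_08284 and CC1G_04605 were marked, both higher. Chitinases, which cut the chitin of the wall, were lower in 6 of 8 cases with 5 marked lower. Class V chitinase ChiB1, CC1G_09921, read 10.98 and 10.87 in mycelium and 12.46 to 14.50 in fruiting samples (-2.22). The class III chitinase CC1G_04407 differed by -2.57 ± 0.0687, mostly through mature caps at 14.18, and lost its call with the wider spread (adjusted p = 0.104). Glucan 1,3 beta-glucosidase CC1G_07602 was lower in mycelium than in every fruiting sample, at 10.01 and 10.09 against 11.96 to 12.75 (-2.23 ± 0.0261). Chitin synthases, which make the polymer, had 6 of 10 higher, 2 lower and 1 marked higher.

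Several of the named genes with the largest losses in mycelium were measured in all fruiting stages. Cytochrome P450 CC1G_14898 read 6.11 and 5.91 in mycelium, under the floor, and 12.27 to 13.82 (median 12.66) on the fruiting arrays, so it was at least 74.3-fold lower in mycelium (adjusted p = 7.44e-10). Aldehyde dehydrogenase CC1G_05987, of the enzymes that oxidise aldehydes to acids, read 6.30 and 6.32 against 11.35 to 11.73, at least 30.2-fold lower, and was almost level across the fruiting stages. UDP-glucose epimerase CC1G_00553, which interconverts UDP-glucose and UDP-galactose, read 8.39 and 8.40 in mycelium and 13.03 to 13.67 in fruiting samples (-4.99 ± 0.0279). Cytochrome P450 11B1, CC1G_07897, was above the floor throughout, at 9.05 and 9.17 against 13.56 to 13.97 (-4.67 ± 0.0410). In these 4 genes initials already differed from mycelium by over 4 log2 units.

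Others were low in mycelium but varied among fruiting stages. Peptide transporter MTD1, CC1G_02463, read 6.19 and 6.23 in mycelium, and its means were 9.31 in initials, 10.65 in primordia, 11.49 in young fruiting bodies and 14.37 in mature caps, at least 28.5-fold lower in mycelium than the fruiting mean. Kynurenine/alpha-aminoadipate aminotransferase CC1G_15151, of tryptophan and lysine metabolism, read 4.79 and 4.89 against 9.35 to 11.62, at least 13.0-fold lower. A gene with a CBS domain, CC1G_14321, read 6.65 and 6.66 in mycelium, where 1 of the 2 arrays was above the floor, 13.14 to 13.23 as means from initials to young fruiting bodies, and 10.18 in mature caps (adjusted p = 6.3e-10). The nitroreductase CC1G_14853 read 6.72 and 6.37 against 11.65 to 12.41, likewise with 1 of the 2 mycelium arrays above the floor (adjusted p = 7.99e-09). For cytochrome P450 CC1G_10321 the mycelium arrays disagreed more, at 6.74 and 5.79 around the floor, against 10.56 to 11.80 in fruiting samples.

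**Figure D5:**
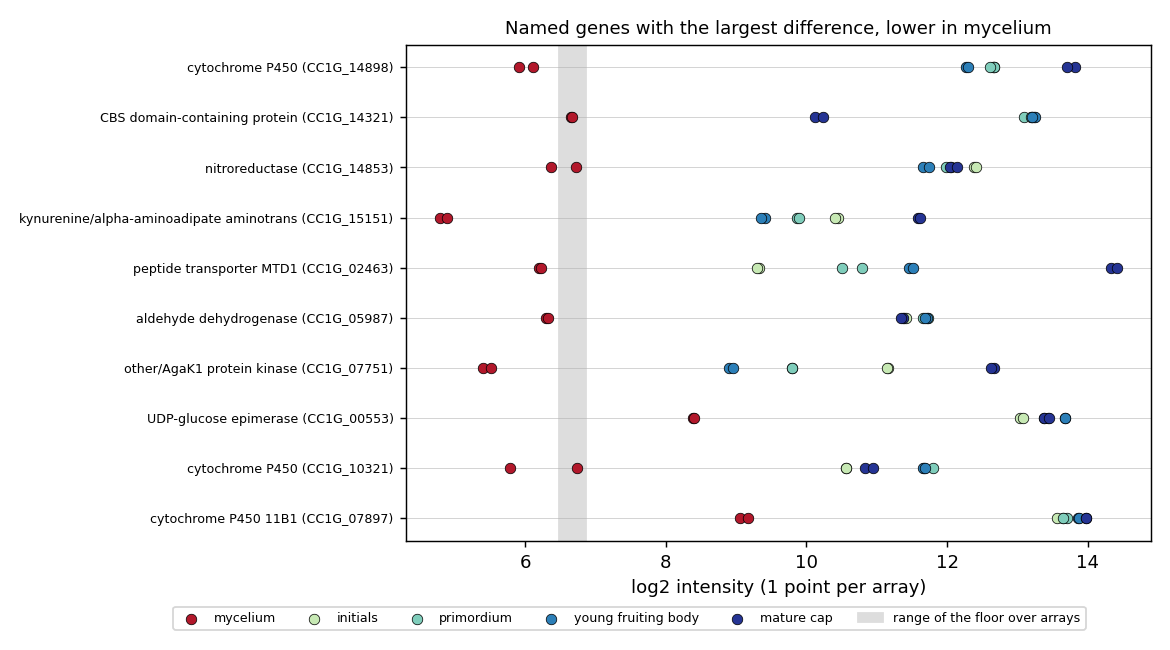
Log2 intensity of the 10 named genes with the largest loss in mycelium, with 1 point for each array, coloured by stage, and a grey band for the floors of the 10 arrays. Both mycelium points lie left of every fruiting point, and the peptide transporter CC1G_02463 climbs from 9.31 in initials to 14.37 in mature caps while the aldehyde dehydrogenase CC1G_05987 stays between 11.35 and 11.73.

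Genes of meiosis, the hydrophobins above and the galectins below all served as checks of the stage labels. These checks use values of the same comparison, so they are not independent of it. Hydrophobins were higher in mycelium in 4 of 5 cases, and most genes of meiosis were lower. The galectins did not set mycelium apart from all fruiting stages. Beside 39.9% lower, 37.1% higher and 8.98% marked lower over all genes, 8 of 11 genes of meiosis and sporulation were lower in mycelium. In that list 2 were higher and 3 marked lower, with a median of -0.51. The wider spread left 3 lower and none higher. Spo11, CC1G_03320, the enzyme that makes the DNA breaks of meiotic recombination, read 6.22 and 6.24 in mycelium, under the floor, and 9.59 to 11.60 in fruiting samples, at least 15.8-fold lower in mycelium (adjusted p = 1.63e-08). It was highest in primordia and young fruiting bodies, at 11.27 and 11.55. The mismatch repair homolog Msh5, CC1G_14981, which stabilises crossovers in meiosis, read 7.63 and 7.70 against 8.31 to 9.02 (-1.02 ± 0.0726).

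A cyclin, CC1G_09963, was the only marked gene of 35 for cyclins and cell division. It read 7.82 and 7.80 in mycelium and its means were higher at each later stage, with 8.60, 11.38, 12.97 and 13.77, a difference of -3.87 that lost its call with the wider spread (adjusted p = 0.0825). In that list 17 genes were higher and 10 lower, beside 37.1% and 39.9% of all genes. The median of the list was 0.07, and none of its genes passed the test with the wider spread. Beside 37.1% higher and 39.9% lower over all genes, 20 of 56 genes of DNA replication and repair were higher and 26 lower. Only Msh5 and DNA polymerase lambda CC1G_01597 (-1.21 ± 0.163) were marked, both lower, and neither passed the test against a 2-fold null. CC1G_14982, which lies next to Msh5, is annotated as a mutS 5 family protein and was not caught by this list. It was marked lower too, at a mean of 8.83 in mycelium against 11.06 in the fruiting mean (-2.24). Leaving out mycelium replicate 1, in which the polymerase read 10.58 against 11.20 in replicate 2, left no member of this list marked lower, and leaving out primordium replicate 1 or mature cap replicate 2 left 1. Of the 11 genes in the histone list 1 was higher and 4 lower by the test. In size 10 lay between -0.11 and 0.08, and the other was at 0.82. CC1G_05753, annotated as histone III and not caught by the list, was marked lower, at 9.28 and 9.27 against 10.68 to 11.85 (-1.77).

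Light sensing had 2 members, both lower in mycelium. Photolyase CC1G_14649, which repairs ultraviolet damage with light, read 11.93 and 12.06 in mycelium and 12.69 to 13.37 in fruiting samples (-1.12 ± 0.0438), and did not pass the test against a 2-fold null (adjusted p = 0.0814). Photoreceptor A, CC1G_08609, differed by -0.57. Light was given during fruiting, per the labels, and cannot be told apart from the stage.

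The fruiting body galectins, sugar-binding lectins of this fungus, did not mark mycelium against all stages alike. Galectin-1, CC1G_05003, read 11.61 and 11.67 in mycelium, below 13.86, 13.65 and 13.34 in initials, primordia and young fruiting bodies, but above mature caps at 9.37. Its difference from the fruiting mean, -0.92 ± 0.0495, passed the test (adjusted p = 2.48e-06) but not with the wider spread (adjusted p = 0.686). Galectin-2, CC1G_05005, read 13.99 and 13.98 in mycelium and 12.41 to 14.58 in fruiting samples (0.08 ± 0.0421, adjusted p = 0.119). Without mature caps the galectin-2 difference was -0.39 (adjusted p = 0.000141), and without mature cap replicate 2 it was 0.10 and passed the test (adjusted p = 0.00965). It also passed as higher without initials, without primordia and without young fruiting bodies, at 0.30, 0.26 and 0.15, with the second block of probes alone (0.11) and with a prior that follows intensity (0.08, adjusted p = 0.0404). The related lectin CGL3, CC1G_00723, differed by 0.88 ± 0.154, and by 0.11 (adjusted p = 0.571) without mature caps, where it was lowest at 10.50. It also lost its call with the wider spread (adjusted p = 0.591) and against a 2-fold null. A ricin B lectin, CC1G_11246, was the 1 of 7 lectins and toxins marked lower (-1.18 ± 0.0518), through mature caps at 13.52, and lost its call with the wider spread (adjusted p = 0.475).

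Ribosomal protein genes were slightly higher in mycelium. Counts of the lists here stand beside 37.1% higher, 39.9% lower and 8.98% marked lower over all genes. Of 74 cytosolic ribosomal proteins 59 were higher and 3 lower, with none marked, a median of 0.18 and a range of -0.54 to 0.43. Of 18 mitochondrial ribosomal proteins 14 were higher and 2 lower, with a median of 0.22. Genes that assemble ribosomes went the other way, with 30 of 39 lower, 2 higher and 4 marked lower, and a median of -0.36. Among them a snoRNA binding protein, CC1G_06928, read 8.92 and 8.88 in mycelium and 12.40 to 12.99 in fruiting samples (-3.86 ± 0.0396), and a second, CC1G_10282, differed by -1.40 ± 0.0357. Against a 2-fold null 2 were marked. These small shifts kept their direction under quantile normalization, with medians of 0.18, 0.23 and -0.37 for the 3 lists, while the median of all genes was -0.0325 against -0.0272 as deposited. With the wider spread 3 cytosolic ribosomal proteins were higher and none lower, 1 mitochondrial one was lower and none higher, and 13 ribosome assembly genes were lower and none higher.

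Genes of nitrogen metabolism were more often marked lower. Of 60 genes for amino acids, urea and nitrogen, 25 were higher and 27 lower, beside 37.1% and 39.9% of all genes. But 2 were marked higher (3.33%) and 11 marked lower (18.3%), beside 10.7% and 8.98% of all genes. The list had 4 higher and 14 lower members with the wider spread. Amidase CC1G_09583, of the enzymes that release ammonia from amides, read 9.16 and 9.02 in mycelium and 12.65 to 13.46 in fruiting samples (adjusted p = 1.78e-09). A general amidase, CC1G_09836, was almost constant in fruiting samples, at 13.34 to 13.48, and read 10.08 and 10.17 in mycelium (-3.29 ± 0.0300). Arginase CC1G_06612, which splits arginine into ornithine and urea, was marked higher, at 10.91 and 10.87 against 8.79 to 10.02 (1.36 ± 0.0326). Tryptophan 2,3-dioxygenase CC1G_01112, the entry into tryptophan breakdown, differed by 1.08 ± 0.0515 and lost its call with the wider spread (adjusted p = 0.0758) and against a 2-fold null.

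Transporters went both ways, and their counts by the test stand beside 37.1% higher and 39.9% lower over all genes. Of 15 sugar transporters 6 were higher and 4 lower, with 2 marked higher and 1 lower. Sugar transporter CC1G_04773 read 13.25 and 13.30 in mycelium and 10.02 to 11.52 in fruiting samples (2.25 ± 0.0626), and CC1G_05616 read 12.81 and 12.77 against 13.61 to 14.18 (-1.22 ± 0.0308). Glucose transporter CC1G_07797 was 1.77 higher but lost its call with the wider spread (adjusted p = 0.093). Of 84 other nutrient and metal transporters 33 were higher and 42 lower, with 3 marked higher (3.57%) and 12 marked lower (14.3%). Over all genes 10.7% were marked higher and 8.98% lower. Allantoate permease CC1G_06212, which takes up a purine breakdown product, read 10.61 and 10.69 in mycelium and 13.91 to 14.86 in fruiting samples (-3.69 ± 0.0278). An MFS multidrug transporter, CC1G_02139, was marked higher (1.54 ± 0.0420). The 3 marked higher became 5 without mature caps and 6 without initials.

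Counts by the test for the lists here stand beside 37.1% higher and 39.9% lower over all genes. Of 29 genes of glycolysis and storage sugars 21 were lower and 3 higher, with a median of -0.13. In this list 1 was marked higher (3.45%) and 3 marked lower (10.3%), beside 10.7% and 8.98% of all genes. With the wider spread none was marked, and 3 were lower and none higher by the test. Glyceraldehyde 3-phosphate dehydrogenase CC1G_09117 read 8.39 and 8.49 in mycelium and 9.05 to 14.03 in fruiting samples, the top value in mature caps (-2.19 ± 0.0367, adjusted p = 0.329 with the wider spread). Glucose-6-phosphate isomerase CC1G_15643 was the member marked higher (1.31 ± 0.0557). In the citric acid cycle and respiration 25 of 54 were higher, 8 lower and 1 marked, malate dehydrogenase CC1G_07719 (1.19 ± 0.0560). The 16 genes of the mitochondrial genome held 4 higher, 5 lower and none marked.

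Lipid metabolism had 34 of 90 genes higher and 40 lower, beside 37.1% and 39.9% of all genes. In this list 5 were marked higher (5.56%) and 6 lower (6.67%), beside 10.7% and 8.98% of all genes. Lipase CC1G_03312, which splits fats, read 7.81 and 8.01 in mycelium and 10.30 to 12.57 in fruiting samples (-3.86 ± 0.136). A GDSL lipase, CC1G_06458, differed by -2.49 ± 0.0532. Acyl-CoA desaturase 1, CC1G_06579, which introduces double bonds into fatty acids, read 12.52 on both mycelium arrays and 11.60 to 11.94 as means from initials to young fruiting bodies. Mature caps stood at 7.78, and its difference of 1.74 lost its call with the wider spread (adjusted p = 0.38).

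The remaining lists held few marked genes, and their counts by the test stand beside 37.1% higher and 39.9% lower over all genes. Of 20 transcription factors 12 were lower and 3 higher, with differences under 2-fold and none marked. Splicing factors had 28 of 58 lower and 8 higher, with pre-mRNA-splicing factor CLF1, CC1G_08670, marked lower (-1.27 ± 0.0397). F-box proteins and ubiquitin ligases had 29 of 48 lower and 13 higher, with the F-box gene grrA, CC1G_01384, marked higher (1.33 ± 0.0312). Translation factors and tRNA synthetases had 24 of 76 higher and 31 lower. An Argonaute-type gene annotated as translation initiation factor 2C 2, CC1G_08842, was marked lower there, at 11.06 and 11.07 against 12.14 to 12.73 (-1.41 ± 0.0218). Isoleucyl-tRNA synthetase CC1G_05258 was marked higher (1.17 ± 0.0551). Vesicle traffic had 15 of 60 higher and 24 lower, chaperones 20 of 49 higher and 19 lower, and the proteasome 5 of 22 in each direction. In the cytoskeleton 22 of 45 were higher and 15 lower. Its 1 marked gene, CC1G_13050, is annotated as an actin of skeletal muscle type, and was at least 8.95-fold higher in mycelium, with 10.87 on both arrays against 5.64 to 8.42. A heat shock protein gene, CC1G_14207, was marked lower (-1.29 ± 0.0288).

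The largest differences of all were in genes without a named product. CC1G_08382 read 12.38 and 12.43 in mycelium and 5.31 to 6.87 in fruiting samples, at least 51.8-fold higher, and CC1G_02761 read 12.19 and 12.22 against 5.71 to 6.64, at least 46.2-fold higher. CC1G_08363 read 13.14 and 13.17 against 6.15 to 8.56, above the floor on 6 of the 8 fruiting arrays, and CC1G_08921 was at least 48-fold higher. Among those lower in mycelium, CC1G_05060 read 7.13 and 7.19, against 13.84 to 14.33 in fruiting samples (-7.01 ± 0.0252), and was measurable in both. CC1G_14899, CC1G_10600 and CC1G_09479 were under the floor in mycelium and at least 61.1-fold, 45.6-fold and 59.9-fold lower there. Of the genes without a product 12.5% were marked higher and 10% lower, against 6.82% and 6.84% of those with one.

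Marked genes often lay next to each other. In the gene order of the RefSeq annotation of assembly CC3, to which 13318 genes matched by locus tag, the following neighbour of a gene marked higher was also marked higher in 25.1% of 1417 cases, against 10.7% of all 13303 genes with a neighbour. For genes marked lower the shares were 18% of 1196 and 8.98%. Runs of at least 3 neighbours marked in the same direction numbered 81 with 276 genes in the higher direction and 35 with 118 genes in the lower direction. The longest runs had 6 genes. One of those marked higher, from CC1G_10996 to CC1G_11000, held the PKL/ccin3 kinase CC1G_10997 (2.28) and 5 genes without a product. A run of 6 marked lower held uricase CC1G_04058 (-2.41), which oxidises urate, a glycosyl hydrolase of family 5, CC1G_04059 (-1.41), and the unnamed CC1G_04060 (-5.80), and the cytochrome P450 CC1G_14898 and the unnamed CC1G_14899, both under the floor in mycelium, have consecutive tags. Neighbouring paralogs can share probe signal, and their part in these shares was not tested.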

How the data were processed

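Members, gene lists and the floor were chosen with earlier results of these data known. Per the file headers, the deposited values are intensities on a linear scale for 2 blocks of probes per gene, and each summarised 5 probes; the authors made them by RMA, as the file names give it. Their software and its settings are not given in the sources used here. In the authors' deposited series table, each intensity was the geometric mean of both blocks. Log2 values of both blocks were averaged here, with no further normalization, filter or pseudocount. All 10 arrays entered 1 limma 3.58.1 fit (R 4.3.3, lmFit and eBayes, 5 residual degrees of freedom) with stage as the only term, checked on simulated data. The labels call the 2 arrays of a stage biological replicates; p-values measure their spread only.

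The text names, among marked genes, the 10 with a product and the 4 without that differ most in each direction, up to 2 per list and direction, and all galectins and hydrophobins; any other named gene, and the subgroups within lists, were picked after their values were seen. The 37 lists are patterns on product names, corrected for false matches after the names were read. Bounds set the brighter side's mean log2 level against, per array, the higher of floor and value. Products are those of the array design and can be old.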

Additional observations from a re-analysis of the deposited data

How the results depend on the processing

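Across 24 alternatives, 2434 of 2472 values of the 103 named genes kept their direction and side of the threshold. Counting differences among fruiting stages as spread lowered the calls to 1444 higher and 1762 lower, with 991 and 870 genes still marked, all of them among the 1419 and 1196. A test against a 2-fold difference called 1320 higher and 1120 lower. Leaving out 1 array gave 4547 to 4990 called higher, 4833 to 5352 lower, 1416 to 1444 marked higher and 1190 to 1269 marked lower. Leaving out 1 fruiting stage gave 1429 to 1540 marked higher and 1215 to 1317 lower. Directions reversed for 2 genes: hydrophobin CC1G_13822 was 0.01 without primordia and 0.03 without young fruiting bodies, and galectin-2 CC1G_05005 was -0.39 without mature caps. Leaving out 1 array changed small list counts: 2 pheromone genes were marked lower without mycelium replicate 1, 2 chaperones lower without mycelium replicate 2 or initials replicate 1, 2 F-box genes higher without mature cap replicate 1, and 1 gene of DNA replication higher without mycelium replicate 2 or either mature cap array. The cause was not tested. A fit with the replicate block called 4929 higher and 5354 lower and kept 1419 and 1196 marked. Between stages, the deviations of same-numbered arrays from their stage means correlated at -0.024 to 0.503, the highest for mycelium and initials. The labels do not say whether the numbers mark a shared culture or day, so they were not taken as pairs. The number of arrays limits precision, and 1468 genes under the floor on all arrays (31 of them marked) have no fold.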

Other observations

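A set of genes joined mycelium with the mature cap against the stages between them; it was picked after the values were seen and has no test. For 215 genes both mycelium and both cap arrays lay at least 2-fold above all 6 arrays of initials, primordia and young fruiting bodies, and for 183 genes they lay at least 2-fold below. The first set holds 59 named genes. Nucleoside-diphosphate-sugar epimerase CC1G_09092 had means of 13.20 in mycelium, 8.55, 8.28 and 9.27 from initials to young fruiting bodies, and 12.48 in caps. Its neighbour by tag CC1G_09093, annotated as an ergot alkaloid biosynthetic protein, had 13.47, then 10.59, 10.49 and 10.44, then 12.67. The mitochondrial alternative oxidase CC1G_03463, which passes electrons to oxygen past the later respiratory complexes, had 13.10, then 11.50, 11.49 and 11.60, then 13.87. Catalase CC1G_05908, which breaks down hydrogen peroxide, had 12.66, then 10.62, 10.71 and 11.56, then 13.28.

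The 183 genes low at both ends include 43 named ones. Phosphatidylserine decarboxylase CC1G_09238, of the enzymes that make phosphatidylethanolamine, had means of 9.40 in mycelium, 14.65, 14.61 and 13.94 from initials to young fruiting bodies, and 10.27 in caps. A second, CC1G_09208, had 9.09, then 13.74, 13.84 and 13.71, then 7.06. Copper amine oxidase CC1G_07935 had 9.61, then 13.38, 13.39 and 13.24, then 9.65. Fatty acid conjugase CC1G_02589 had 9.48, then 12.89, 12.96 and 12.89, then 7.54. For genes of this kind the difference from the fruiting mean understates the distance of mycelium from the middle stages.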
